A study of Mus musculus with 8 samples.

Results

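The constitutive proteasome genes and the genes of its activators were compared between wound macrophages of day 3 and day 1 after injury. They were taken by symbol: Psma1 to Psma7, Psmb1 to Psmb7, Psmc1 to Psmc6, Psmd1 to Psmd14 and Psme1 to Psme4, which is 38 of the 55414 genes counted. All 38 were found and all 38 passed the filter on low counts. By role they fell into 7 core alpha genes, 7 core beta genes, 9 genes of the cap base, 8 of the cap lid, 3 cap assembly chaperones and 4 activators. The core below is the 14 alpha and beta genes and the cap the 17 base and lid genes, so the chaperones are outside both.

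The proteasome is the barrel-shaped protease that degrades ubiquitin-tagged proteins in the cytosol and nucleus. The core particle is a stack of rings: alpha subunits form the gated outer rings, and beta subunits form the inner rings, in which Psmb5, Psmb6 and Psmb7 carry the chymotrypsin-like, caspase-like and trypsin-like active sites. The regulatory cap binds the ubiquitin chain and removes it in its lid, and its base of ATPases unfolds the substrate and threads it into the core. Activators open the core without ubiquitin, and Psme1 with Psme2 form the one that interferon gamma induces. In macrophages the proteasome also makes peptides for antigen presentation and degrades inhibitors of inflammatory signalling.

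RNA was sequenced in bulk from macrophages of mouse skin wounds, 5 libraries (a to e) of day 3 and 3 libraries (a to c) of day 1. A pool of 6 wounds taken from 3 mice gave each library, per the labels' protocols, which state 6 samples per day; the remaining samples were not analysed here. The wound bed was digested with collagenases and macrophages were captured on magnetic beads by F4/80, the Adgre1 protein of their surface. No genotype, agent, strain or age that separates the days is given in the sources used here, so the groups differ by time after injury as far as the labels say. Whether any mouse contributed to several pools is not stated, and the p-values therefore describe variation between pools. A bead-selected population is not pure, and in bulk RNA fewer cells of a type and less RNA per cell cannot be told apart.

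Total counts ran from 50515389 to 56661695 in the day 3 libraries and from 41566151 to 60289310 in the day 1 libraries. Genes with at least 1 count numbered 20557 in day 3 a and 14952 to 15359 in day 3 b to e, against 23928 to 27315 in the day 1 libraries, without overlap, and the part of this in the members' values was not tested. The 8 macrophage markers summed to between 29952 and 40671 CPM at day 3 (counts scaled to an equal library size with TMM factors) and between 21082 and 26524 CPM at day 1. Lyz2 made up most of the difference, with 15756 to 23266 CPM at day 3 and 6688 to 9884 CPM at day 1. Adgre1, the gene of the bead target, was also higher in every day 3 library, Fcgr1 was lower (343 to 491 CPM at day 3 and 716 to 975 CPM at day 1), and the other 5 overlapped. The 4 monocyte markers summed to 1166 to 1965 CPM at day 3 and 1692 to 2640 CPM at day 1. The sum of 10 neutrophil markers was 425 to 644 CPM in day 3 a, c, d and e but 3624 CPM in day 3 b, against 839 CPM in day 1 a, 2201 CPM in day 1 b and 3799 CPM in day 1 c. Of those 10 markers, 4 were at or under 3 counts in at least 1 library. The 6 fibroblast markers summed to 55.6 to 118 CPM at day 3 and 9.45 to 37.6 CPM at day 1, the 5 B and plasma cell markers to 17.5 to 35.98 CPM at day 3 and 0.150 to 13.4 CPM at day 1, and the 4 endothelial markers to 13.1 to 26.9 CPM at day 3 and 28.5 to 68.4 CPM at day 1, all without overlap. Of the endothelial markers, Pecam1 and Kdr each overlapped between the days, and Kdr was at 45.0 CPM in day 1 a. At or under 3 counts in at least 1 library were 3 of the 4 endothelial markers. Dendritic, T cell, mast cell, keratinocyte and red cell markers each summed to at most 27.8 CPM at day 3 and 23.4 CPM at day 1, with overlap. Day 1 a and day 1 c stood apart among the members: 17 of the 38 had their highest value of all 8 libraries in day 1 a, and in day 1 c 7 had their highest and 12 their lowest.

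The members' transcripts were abundant at both days, and most overlapped between them. Together the 38 genes summed to 7023 ± 520 CPM at day 3 and 7805 ± 1049 CPM at day 1 (SD, n = 5 and 3), and the days overlapped. Of the 38 members, 0 were called by the edgeR quasi-likelihood test with Benjamini-Hochberg adjustment over all genes at 0.05, where 0.013% of 15371 genes (2 genes) were called. At an unadjusted p under 0.05 there were 10 members, 2 higher and 8 lower at day 3, which is 26.3% of the members beside 15.8% of all genes (5.12% higher and 10.6% lower). With a stricter filter, which keeps genes with at least 1 CPM in every library of a day and a mean of at least 5 CPM, edgeR called 1 member, Psmd5, as higher, and 1.79% of 8142 genes (0.774% higher and 1.02% lower). All 38 members pass that filter. Under it 26.3% of the members and 20.6% of the 8142 genes were at an unadjusted p under 0.05. DESeq2 called 6 members (Psmd5 higher, and Psmb7, Psmd2, Psmd3, Psme1 and Psme3 lower) and 6.77% of all genes, 2.48% higher and 4.29% lower. Limma voom called 2 members (Psmd5 higher and Psme1 lower) and 5.41% of all genes, 0.95% higher and 4.46% lower.

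In 8 members the values of the days did not overlap, which is 21.1% of the members. The share was 14.1% of all genes tested and 15.7% of the genes kept by the stricter filter. Psmd5 and Psmd10 lay above day 1 in every day 3 library, where 5.22% of all genes did so. Psmb7, Psmc1, Psmd2, Psmd3, Psme1 and Psme3 lay below, where 8.84% of all genes did so. The median log2 fold change (day 3 over day 1) was -0.20 over the 38 members, 10 above 0 and 28 below. Over all genes tested it was -0.17, 6561 above 0 and 8810 below. With the stricter filter the medians were -0.16 and -0.03. Without day 1 a the members' median was -0.07. With offsets adjusted for GC content it was -0.09, and that of all genes -0.02. The median absolute log2 fold change was 0.21 over the members and 0.65 over all genes tested, most of which were less abundant.

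**Figure D1:**
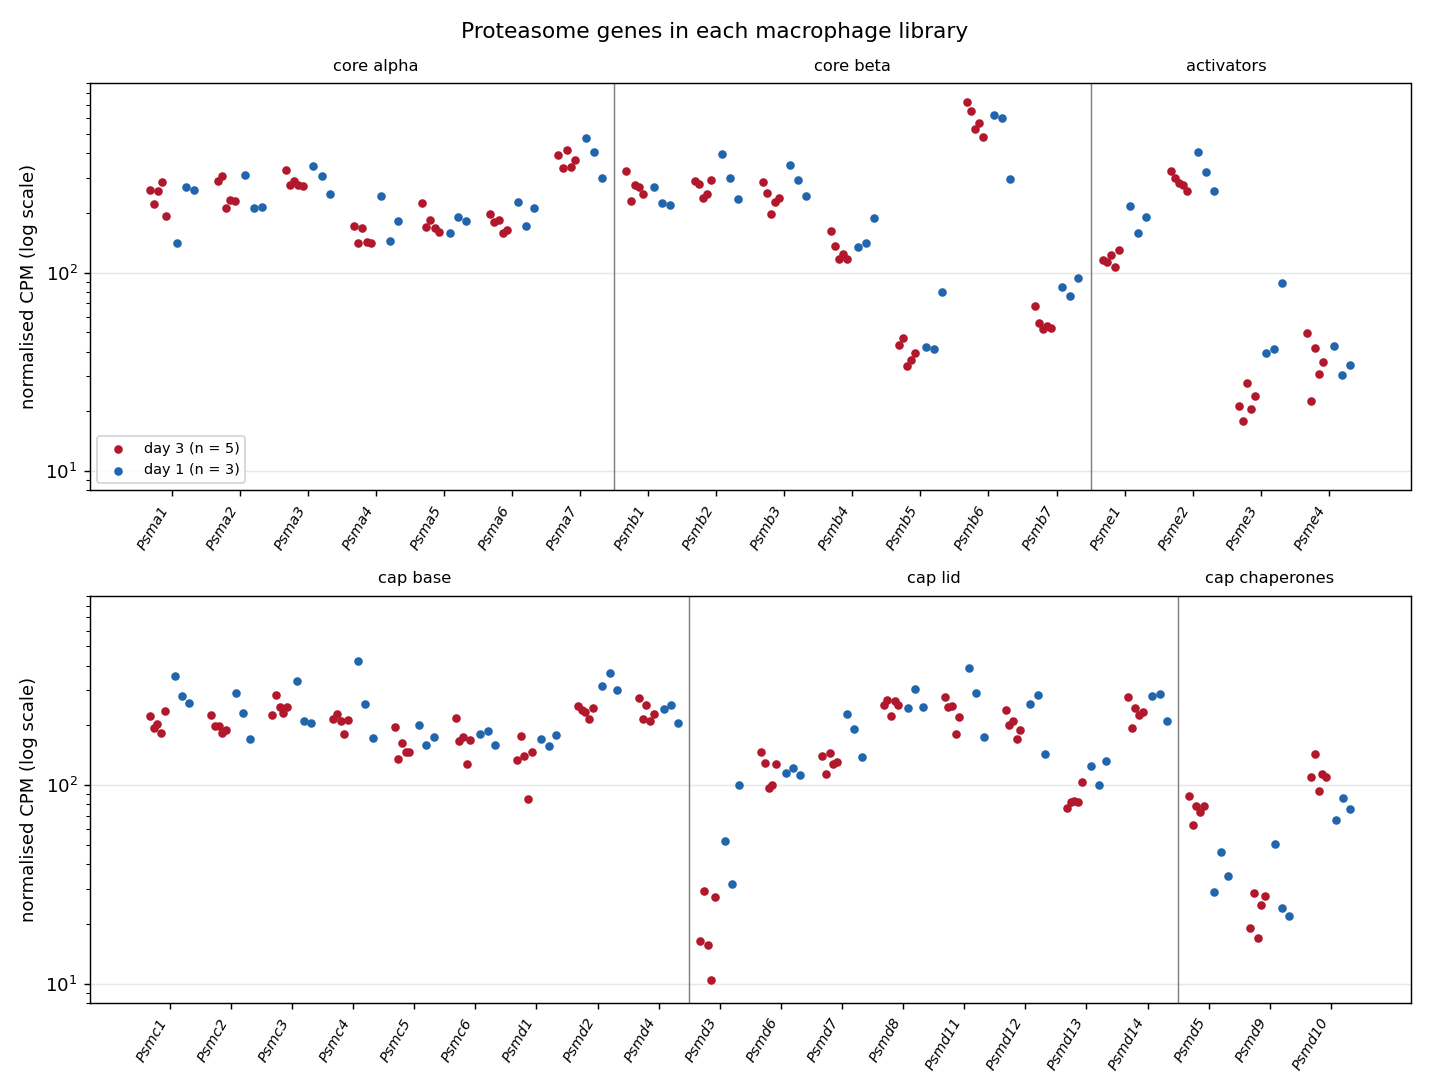
Normalised CPM (log axis) of each of the 38 genes in every library, day 3 in red left of day 1 in blue, 1 point per library. Most genes of core and cap overlapped between the days, Psmb6 was the most abundant in CPM at day 3 (589.6 ± 96.4), and Psmd3 and Psme3 had their highest point in a single day 1 library.

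**Figure D2:**
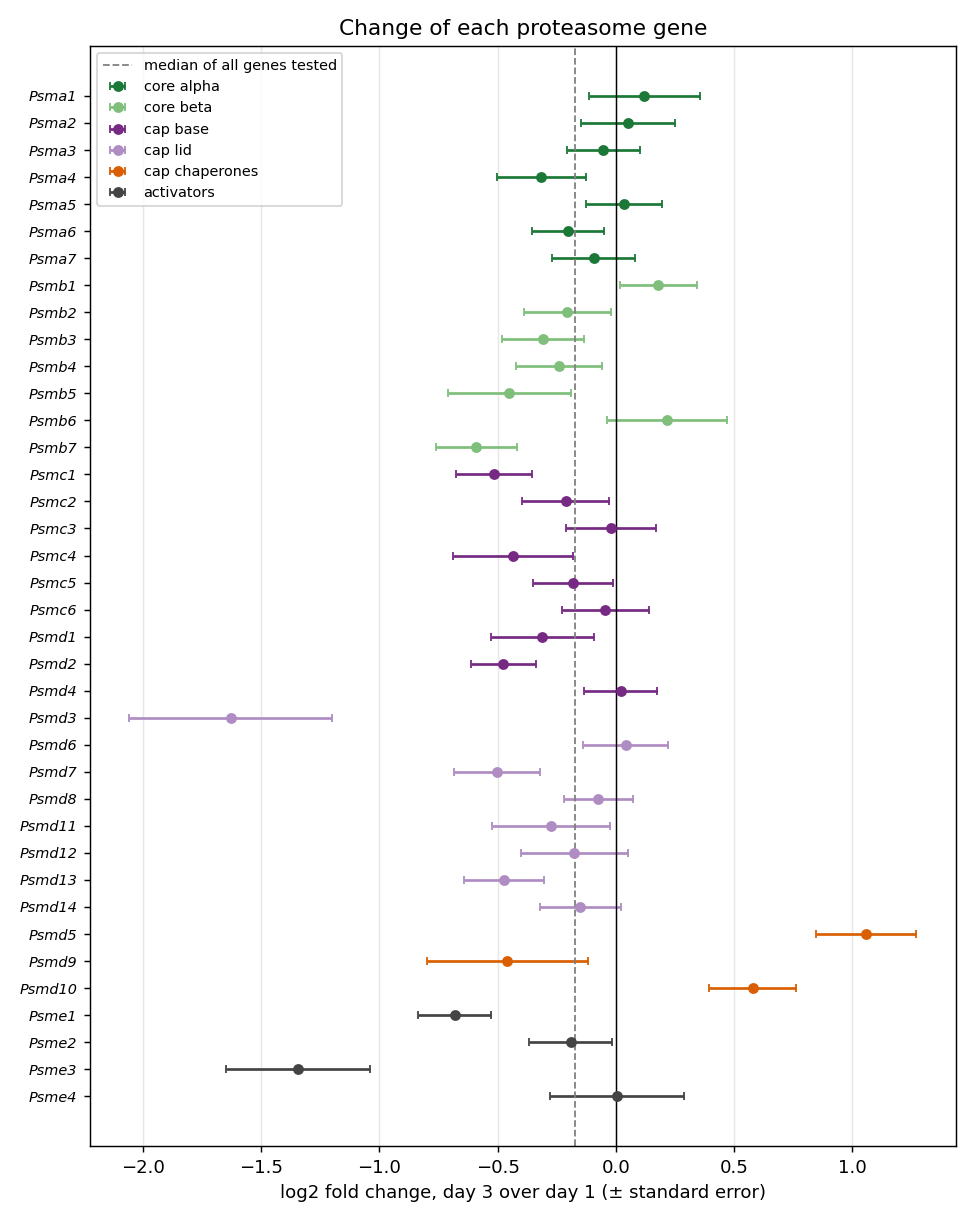
Log2 fold change, day 3 over day 1, of each gene with its standard error from edgeR, coloured by role. The dashed line is the median over all genes tested (-0.17), and Psmd5 (1.06) and Psmd3 (-1.63) lie at the ends.

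The alpha genes, which encode the outer rings and the gate of the core, showed no call by any of the tools and overlapped between the days in all 7 cases. Their median log2 fold change was -0.05, the range -0.31 (Psma4) to 0.12 (Psma1). Psma7 was the most abundant in CPM, with 389.8, 335, 415, 341 and 370.2 CPM in day 3 a to e and 478, 406 and 301 CPM in day 1 a to c. The day 1 values of Psma7 enclosed those of day 3, with day 1 a the highest and day 1 c the lowest of all libraries. Psma1 was low in 1 library, day 1 a, at 141 CPM, against 192 to 284 CPM at day 3 and 270.4 and 259 CPM in day 1 b and c. Without day 1 a its log2 fold change was -0.14, on the other side of 0. The summed alpha genes came to 1664 ± 127 CPM at day 3 and 1731 ± 152 CPM at day 1 (SD, n = 5 and 3).

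The beta genes had a median log2 fold change of -0.24, and 6 of the 7 overlapped between the days. Psmb6, which carries the caspase-like site, had 719.7, 653, 531, 565 and 479.6 CPM in day 3 a to e and 624, 602 and 297 CPM in day 1 a to c. Its day 1 c value was the lowest of the 8, and the rest of the day 1 values lay inside the day 3 range. The log2 fold change of Psmb6 was 0.22 ± 0.25 (SE; edgeR adjusted p = 0.758), and -0.05 without day 1 c. Psmb5, with the chymotrypsin-like site, had 43.3, 47.1, 33.7, 36.2 and 39.2 CPM at day 3 and 42.3, 41.3 and 79.9 CPM at day 1. Here day 1 c was the highest library, and day 1 a and b fell inside the day 3 range. Its log2 fold change was -0.45 ± 0.26 (edgeR adjusted p = 0.462), -0.07 without day 1 c, and -0.13 with offsets adjusted for GC content.

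Psmb7, which carries the trypsin-like site, was the core gene whose days did not overlap. It had 68.0, 55.99, 51.8, 53.7 and 52.5 CPM in day 3 a to e, against 84.8, 75.9 and 93.9 CPM in day 1 a to c. Every day 3 library was below every day 1 library, day 3 a being the nearest. The mean was 56.4 ± 6.67 CPM at day 3 and 84.9 ± 9.02 CPM at day 1 (SD, n = 5 and 3). Its log2 fold change was -0.59 ± 0.17. DESeq2 called it lower (adjusted p = 0.0341), and edgeR (0.117) and voom (0.0781) did not. Psmb7 lies on chromosome 2 of GRCm39, 38478048 to 38534099, minus strand, and 405 of its 3421 exon bases are shared with Nek6, a kinase gene on the opposite strand. Counting used no strand, and Nek6 had 33.6 to 55.5 CPM at day 3 and 41.1 to 105 CPM at day 1 (log2 fold change -0.74 ± 0.29). Its part in the Psmb7 value was not tested.

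The other beta genes encode ring subunits without an active site, and 0 of these 4 were called by edgeR, DESeq2 or voom. Psmb1, Psmb2, Psmb3 and Psmb4 averaged 269, 269, 239 and 131 CPM at day 3 and 238, 309.9, 295 and 155 CPM at day 1. Their log2 fold changes were 0.18 ± 0.16, -0.21 ± 0.18, -0.31 ± 0.17 and -0.24 ± 0.18. Psmb1 was above 0 and the other 3 were below, all with overlapping days.

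Per kilobase of exon the core genes differed widely among themselves, although their products enter the particle in equal numbers. At day 3 they ran from 16.5 CPM per kb (Psmb7) to 315 CPM per kb (Psmb6), with a median of 78.2, and at day 1 from 24.8 to 271 with a median of 79.6, the same genes at both ends. The catalytic genes Psmb6, Psmb5 and Psmb7 stood at 315, 44.4 and 16.5 CPM per kb at day 3 and at 271, 60.6 and 24.8 CPM per kb at day 1. The length is that of all annotated exons of a gene joined together, so a gene with long rarely used exons is set too low on this scale.

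**Figure D3:**
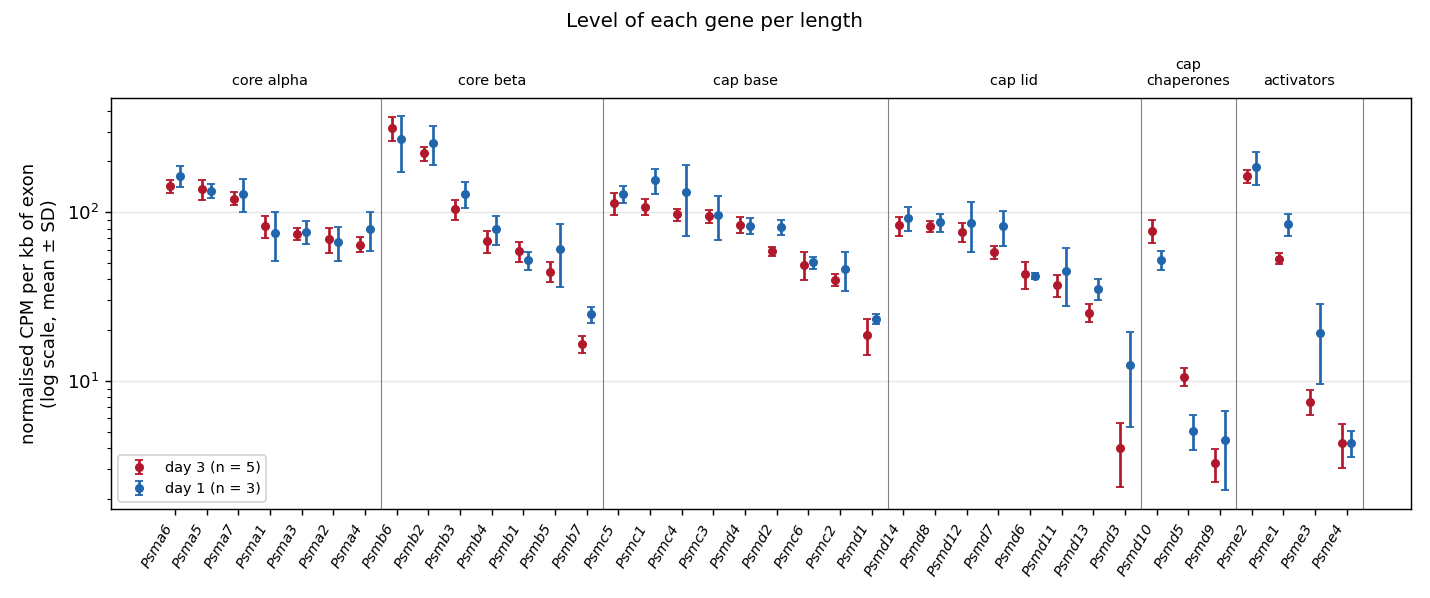
Level of each gene in normalised CPM per kb of exon (log axis, mean ± SD), day 3 in red and day 1 in blue, sorted by the day 3 level within each role. The core spans from Psmb7 (16.5 at day 3) to Psmb6 (315), and Psmd3, Psmd9 and Psme4 are at or below 4.30 at day 3.

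The RefSeq promoter table (GRCm38.p6) held 32 of the 38 members; Psmb1, Psmb2, Psmb7, Psmc3, Psmd3 and Psmd7 are not covered here. The 250 bases before the start were searched on both strands for TGACNNNGC, the antioxidant-type element to which the proteasome regulators encoded by Nfe2l1 and Nfe2l2 bind, and for CCAAT, a common promoter box. TGACNNNGC stood in 5 of 32 members (15.6%), namely Psmb5, Psmb6, Psmc6, Psmd9 and Psmd12, and in 11.5% of the 27025 genes of the table. CCAAT stood in 12 of 32 (37.5%) and in 37.5% of all genes. The first base of the element lay 9, 31 and 47 bases before the start in Psmb6, Psmd9 and Psmb5. Psmd9, at 3.25 CPM per kb at day 3, is outside the core and is not shown. The promoters of the core genes Psmb6 and Psmb5 are shown because their levels per kb lie far apart. They are chr11:70525107-70525356, plus strand, and chr14:54617996-54618245, minus strand, written 5′ to 3′ with the element in capitals:
Psmb6: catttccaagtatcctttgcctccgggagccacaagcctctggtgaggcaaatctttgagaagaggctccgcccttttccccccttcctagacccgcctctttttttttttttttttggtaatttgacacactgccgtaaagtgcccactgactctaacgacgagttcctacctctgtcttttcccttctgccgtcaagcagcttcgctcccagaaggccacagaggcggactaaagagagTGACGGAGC
Psmb5: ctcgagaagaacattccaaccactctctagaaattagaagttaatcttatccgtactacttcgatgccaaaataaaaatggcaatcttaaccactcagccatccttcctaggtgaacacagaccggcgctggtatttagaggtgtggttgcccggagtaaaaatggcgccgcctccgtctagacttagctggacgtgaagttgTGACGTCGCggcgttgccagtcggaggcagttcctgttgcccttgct

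The cap base holds the ATPases Psmc1 to Psmc6 and the large subunits Psmd1 and Psmd2, with the ubiquitin receptor Psmd4 grouped here. Its 9 genes had a median log2 fold change of -0.21, 8 below 0 and Psmd4 at 0.02. Psmd2, a scaffold on which ubiquitin-like domains dock, had 249, 240.2, 234, 214 and 245 CPM in day 3 a to e, against 317, 369 and 302 CPM in day 1 a to c. The days did not overlap, and the day 3 values lay close together. The log2 fold change of Psmd2 was -0.48 ± 0.14, which DESeq2 called lower (adjusted p = 0.0234), and edgeR (0.116) and voom (0.0585) did not. Psmc1 (Rpt2 in yeast), an ATPase whose tail helps open the gate, had 223, 194, 204, 184 and 238 CPM at day 3 and 353, 283 and 259 CPM at day 1. Its days did not overlap either, and its log2 fold change was -0.52 ± 0.16 (adjusted p = 0.144 with edgeR, 0.0691 with DESeq2 and 0.0887 with voom).

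Among the other ATPases, Psmc4 differed more between the day 1 pools than between the days. It had 182 to 229 CPM at day 3, against 423 CPM in day 1 a, 256 CPM in day 1 b and 173 CPM in day 1 c, so that day 1 a was the highest and day 1 c the lowest of all libraries. Its log2 fold change was -0.43 ± 0.25, and -0.04 without day 1 a. Psmc2, Psmc3, Psmc5 and Psmc6 had log2 fold changes of -0.21, -0.02, -0.18 and -0.04, and Psmd1 of -0.31, all with overlapping days. Psmc3 was at 0.23 without day 1 a.

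The lid, which removes the ubiquitin chain, had a median log2 fold change of -0.23 over 8 genes, 7 of them below 0. Psmd14, the deubiquitinase itself, had 278, 194, 244, 227 and 233 CPM at day 3 and 282, 289 and 212 CPM at day 1 (log2 fold change -0.15 ± 0.17), with overlapping days. Psmd7, its partner in the active dimer, and Psmd13 had log2 fold changes of -0.50 ± 0.18 and -0.47 ± 0.17 and were not called by edgeR (adjusted p = 0.209 and 0.202). With offsets adjusted for GC content Psmd13 was at -0.30. In Psmd7 the days overlapped only through day 1 c, at 139 CPM. Psmd13 overlapped through day 3 e (104 CPM) and day 1 b (99.97 CPM), and it shares 342 of its 3377 exon bases with Sirt3 on the opposite strand, a gene at no more than 8.50 CPM at day 3 and 7.48 CPM at day 1. Psmd6, Psmd8, Psmd11 and Psmd12 lay between -0.28 and 0.04.

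Psmd3, a structural lid subunit, had the lowest level per length in the cap and the most negative fold change of the 38. It had 16.5, 29.5, 15.7, 10.4 and 27.3 CPM in day 3 a to e, against 52.5, 31.7 and 100.1 CPM in day 1 a to c. The days did not overlap, but day 3 b (29.5) and day 1 b (31.7) were close, and day 1 c was far above the rest. The mean was 19.9 ± 8.15 CPM at day 3 and 61.5 ± 35.0 CPM at day 1, a log2 fold change of -1.63 ± 0.43, and -1.08 without day 1 c. DESeq2 called it lower (adjusted p = 0.0125), and edgeR (0.0914) and voom (0.0788) did not. Per kb it stood at 4.00 CPM at day 3 and 12.4 CPM at day 1, while the median of the 17 cap genes was 58.6 CPM at day 3 and 82.4 CPM at day 1. Psmd3 lies on chromosome 11 of GRCm39, 98573380 to 98586805, plus strand.

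Day 1 c, in which Psmd3, Psme3 and Psmb5 were highest and Psmb6, Psma7, Psmc4 and Psmd12 lowest, differed in other measures as well. It had the highest neutrophil marker sum of the 8 libraries (3799 CPM), with day 3 b close to it at 3624 CPM. Day 1 c also had the lowest mitochondrial share (0.501% of counts, against 0.868% to 2.38% in the other libraries of both days). Its share of even low counts was the lowest as well (73.0%, against 81.3% to 86.0%). Over 4293 abundant genes its deviation from the day mean correlated with GC content at r = 0.38, against -0.23 in day 1 a and b and between -0.22 and 0.30 at day 3, a description across genes. Over the 38 members alone r was 0.11 in day 1 c, 0.13 in day 1 a, -0.32 in day 1 b and between -0.40 and 0.31 at day 3. Psmd3 (58.3% GC), Psmb5 (56.6%) and Psmb6 (55.8%) are the most GC-rich members. With offsets adjusted for GC content Psmd3 was at -1.23 and Psme3 at -1.21. The part of the other measures in the values of these genes was not tested.

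Of the 3 chaperones that assemble the cap base, Psmd5 and Psmd10 were higher in every day 3 library than in any of day 1. Of the 9 base genes 8 had a fold change below 0, beside 8810 of all 15371 genes tested. With the stricter filter 7 of the 9 did, beside 4221 of 8142 genes. Psmd5 binds the base before it joins the core and is released from the finished particle. It had 88.4, 63.1, 78.9, 73.0 and 78.8 CPM in day 3 a to e, against 28.9, 46.1 and 35.1 CPM in day 1 a to c. The lowest day 3 library, b, was above the highest day 1 library, also b. Its mean was 76.5 ± 9.26 CPM at day 3 and 36.7 ± 8.68 CPM at day 1, a log2 fold change of 1.06 ± 0.21.

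Psmd5 rose by the edgeR test with the stricter filter (adjusted p = 0.0417; log2 fold change 1.09 ± 0.23), by DESeq2 (0.000373) and by voom (0.0251), and missed the threshold by edgeR with the default filter (0.0823). With the stricter filter and 1 library left out, the edgeR call held without day 1 b or day 3 b and was lost without day 1 a (0.0620), day 1 c (0.0670) or any of day 3 a, c, d and e (0.0992 to 0.114). The fold change itself ran from 0.90 to 1.25 with the default filter. Psmd5 lies on chromosome 2 of GRCm39, 34739746 to 34764980, minus strand, with no exon base shared with another gene and no near-identical copy found among the annotated transcripts.

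Psmd10 (gankyrin), the next chaperone of the base, also lay higher at day 3 in every library. Its values were 111, 144, 93.2, 114 and 110.3 CPM in day 3 a to e and 66.6, 86.7 and 76.3 CPM in day 1 a to c, day 3 b being the highest. The log2 fold change was 0.58 ± 0.19, and it was not called (adjusted p = 0.155 with edgeR, 0.0550 with DESeq2 and 0.118 with voom). Psmd9, the remaining chaperone, had 19.1, 28.6, 16.99, 25.1 and 27.8 CPM at day 3 and 50.8, 24.1 and 22.02 CPM at day 1. Its days overlapped and its log2 fold change of -0.46 ± 0.34 was 0.01 without day 1 a, the library that held its highest value.

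The promoters of Psmd5 and Psmd10 are shown because they are the members that were higher at day 3 in every library. The window of Psmd5, chr2:34870963-34871212 on the minus strand of GRCm38.p6, holds neither of the motifs searched. That of Psmd10, chrX:140956712-140956961 on the minus strand, holds CCAAT 3 times, 230, 47 and 24 bases before the start at the first base of each, the last of them and the middle one on the opposite strand, where it reads ATTGG. Capitals mark those boxes:
Psmd5: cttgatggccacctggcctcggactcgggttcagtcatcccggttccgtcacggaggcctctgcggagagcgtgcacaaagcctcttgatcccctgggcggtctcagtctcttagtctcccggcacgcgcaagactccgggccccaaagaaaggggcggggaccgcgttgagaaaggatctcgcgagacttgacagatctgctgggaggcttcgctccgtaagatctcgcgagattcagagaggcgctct
Psmd10: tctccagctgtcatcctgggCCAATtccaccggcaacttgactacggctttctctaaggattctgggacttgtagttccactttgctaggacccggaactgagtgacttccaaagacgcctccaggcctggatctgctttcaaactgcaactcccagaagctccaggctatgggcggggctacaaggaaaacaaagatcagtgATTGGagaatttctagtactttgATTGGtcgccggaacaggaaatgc

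The activators divided into genes lower at day 3 and genes that overlapped. Psme1 had 116, 113, 122, 106.1 and 129 CPM in day 3 a to e, against 215, 158 and 191 CPM in day 1 a to c. The days did not overlap, and the highest day 3 library stayed under the lowest day 1 library, b. Its mean was 117 ± 8.91 CPM at day 3 and 188 ± 28.6 CPM at day 1, a log2 fold change of -0.68 ± 0.15. DESeq2 (adjusted p = 0.00484) and voom (0.0343) called it lower, and edgeR did not (0.0824, and 0.0673 with the stricter filter). Psme1 lies on chromosome 14 of GRCm39, 55815580 to 55818986, plus strand, and shares 14 of its 2209 exon bases with Emc9.

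Psme2, whose product shares the ring with that of Psme1, had 326, 299, 283, 274 and 258 CPM at day 3 and 406, 322 and 258 CPM at day 1. These overlapped, and its log2 fold change was -0.19 ± 0.17 (edgeR adjusted p = 0.680). Psme2 has a near-identical protein-coding copy, Psme2b (99.4% over 794 bases), counted at 8.34 to 16.99 CPM at day 3 and 5.64 to 12.5 CPM at day 1, so its reads may be divided. The sum of Psme1 and Psme2 was 405 ± 24.1 CPM at day 3 and 517 ± 91.7 CPM at day 1, without overlap. The difference between the fold changes of Psme1 and Psme2 was not tested.

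Psme3, which encodes a nuclear activator that works without ATP or ubiquitin, had 21.2, 17.9, 27.6, 20.6 and 23.9 CPM in day 3 a to e, against 39.4, 41.2 and 88.8 CPM in day 1 a to c. All day 3 values were below all day 1 values, and day 1 c was far above the other day 1 libraries. Its log2 fold change was -1.34 ± 0.31, and -0.86 without day 1 c. DESeq2 called it lower (adjusted p = 0.00410), and edgeR (0.0824) and voom (0.0515) did not. Under the stricter filter edgeR called it lower without day 1 a (adjusted p = 0.0432) and without day 1 b (0.0416), but not over all libraries (0.0595), without day 1 c (0.151) or without any 1 of the day 3 libraries (0.0915 to 0.134). With a day 3 library dropped under that filter, the log2 fold change of Psme3 stayed between -1.39 and -1.24. Among those fits, the ones lacking c, d or e called 0 genes of any kind. With day 1 c dropped, Psme3 was at -0.82. Psme4, which encodes a nuclear activator that acts on acetylated histones, had 49.5, 22.5, 41.9, 30.8 and 35.3 CPM at day 3 and 42.8, 30.5 and 34.3 CPM at day 1, with overlapping days and a log2 fold change of 0.01 ± 0.28.

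**Figure D4:**
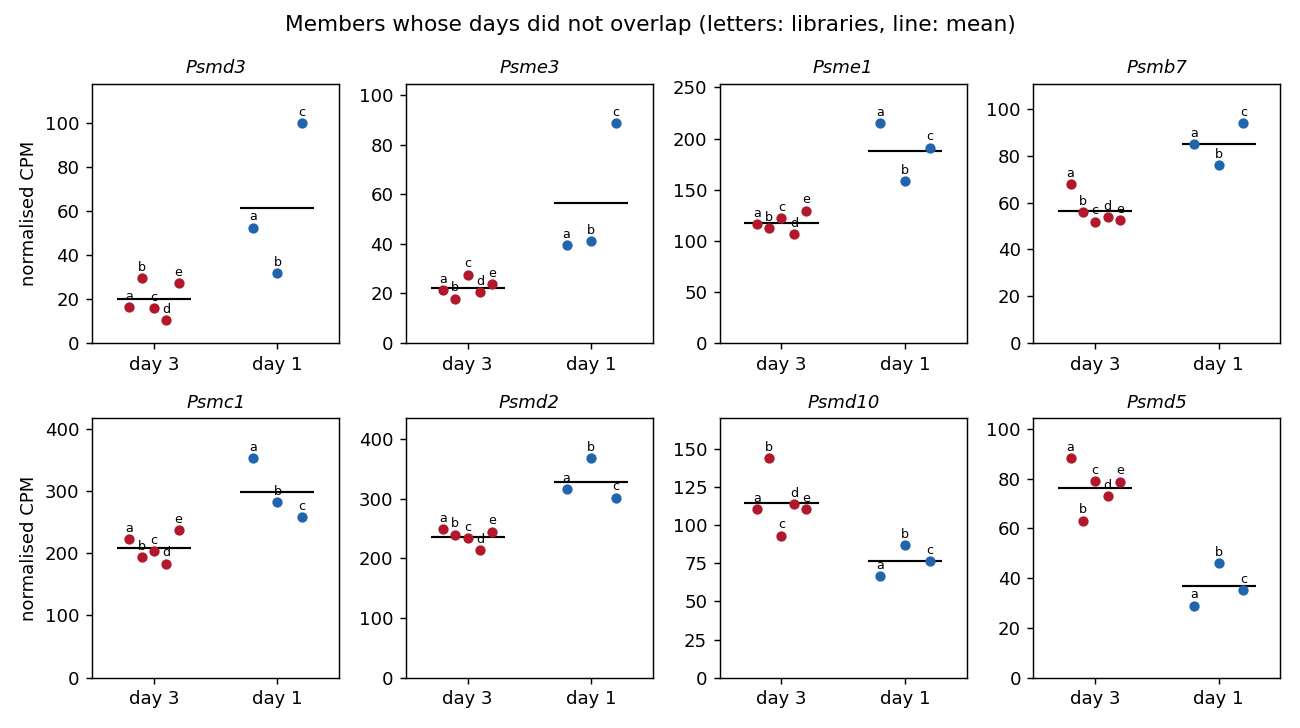
Normalised CPM in each library of the 8 genes whose days did not overlap, day 3 left and day 1 right, with library letters and a line at the mean (axes start at 0). Psmd5 and Psmd10 are higher at day 3, the other 6 lower, and day 1 c stands above the rest in Psmd3 (100.1) and Psme3 (88.8).

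Core and cap were compared by summed CPM in each library. The core summed to 3258 ± 295 CPM at day 3 and 3375 ± 420 CPM at day 1, and the cap to 3087 ± 233 CPM at day 3 and 3675 ± 558 CPM at day 1 (SD, n = 5 and 3). Both sums overlapped between the days, the cap through day 1 c alone. The log2 ratio of core to cap was 0.15, 0.08, 0.03, 0.19 and -0.06 in day 3 a to e, against -0.15, -0.14 and -0.07 in day 1 a to c. Every day 3 library lay above every day 1 library, with day 3 e (-0.06) and day 1 c (-0.07) all but touching. The mean ratio was 0.08 ± 0.10 at day 3 and -0.12 ± 0.04 at day 1, a difference of 0.20 on the log2 scale, given as a description with no test since the ratio is a score over chosen genes.

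The direction of that difference was the same under each other way of summing, but the separation of the days was not. With the 3 chaperones counted in the cap the difference was 0.15, without Psmb6 in the core 0.14, and with the mean log2 CPM per gene in place of the sum 0.19, and in each of these the days overlapped. Psmb6 made up 18.0% ± 1.604 of the core sum at day 3 and 14.8% ± 4.15 at day 1, and 10.04% in day 1 c alone. With each of the 8 libraries left out in turn the difference lay between 0.17 and 0.23. Within the core, alpha genes summed to 1664 ± 127 and beta genes to 1594 ± 185 CPM at day 3, against 1731 ± 152 and 1645 ± 272 CPM at day 1. Within the cap, base and lid summed to 1804 ± 145 and 1283 ± 93.7 CPM at day 3, against 2151 ± 343 and 1524 ± 229.8 CPM at day 1.

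**Figure D5:**
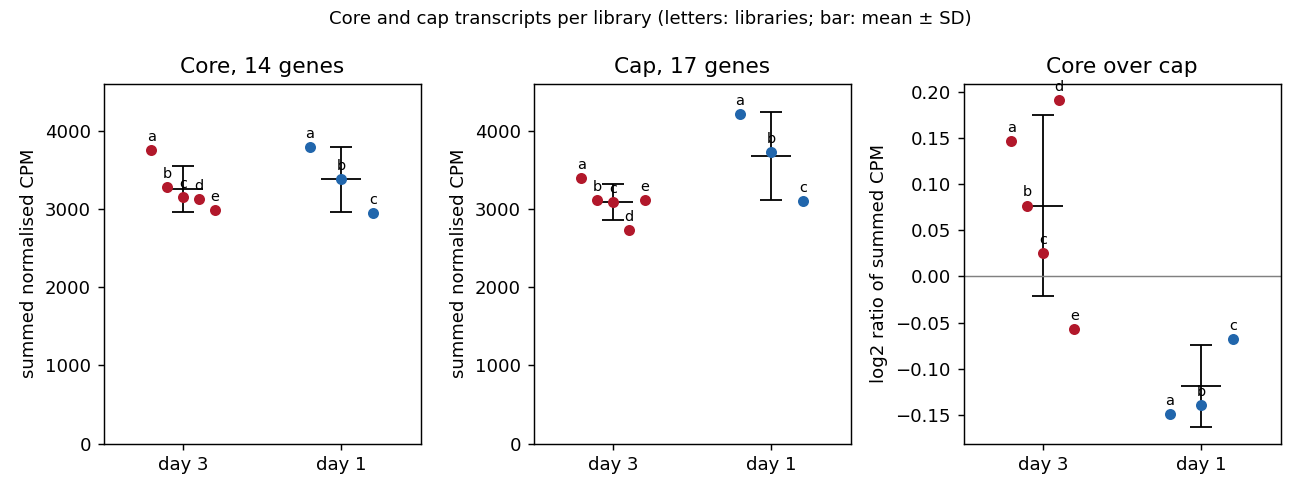
Summed normalised CPM of the 14 core genes and the 17 cap genes, and the log2 ratio of the sums, in each library (letters), day 3 left of day 1, with mean ± SD. The sums overlap between the days, and the ratio is 0.08 ± 0.10 at day 3 and -0.12 ± 0.04 at day 1 without overlap.

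The spread between pools was described by the coefficient of variation. The median coefficient of variation of the 38 genes was 12.7% at day 3 and 18.6% at day 1. Over 4296 genes at least as abundant as the lowest member (a mean of 26.8 CPM) it was 19.0% at day 3 and 28.3% at day 1. Beyond that cut the sets were not matched in abundance, and the difference was not tested. Within day 3 the members' median absolute deviation from the day mean was largest in library a, at 0.18 on the log2 scale, and between 0.09 and 0.12 in b to e. At day 1 it was 0.24 in a, 0.16 in b and 0.22 in c.

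The immunoproteasome subunits Psmb8, Psmb9 and Psmb10 replace Psmb5, Psmb6 and Psmb7 in cells exposed to interferon. Of the 5 genes listed as immunoproteasome or tissue subunits, 4 were tested, and 0 were called by edgeR, DESeq2 or voom. With edgeR 1 of them (Psmb9) was at an unadjusted p under 0.05, as were 15.8% of all genes tested. Psmb9 had 70.4, 65.1, 62.4, 84.8 and 80.4 CPM in day 3 a to e, against 109, 104 and 95.5 CPM in day 1 a to c, without overlap (log2 fold change -0.50 ± 0.17; edgeR adjusted p = 0.170). Psmb8 averaged 298 ± 37.4 CPM at day 3 and 360.2 ± 142 CPM at day 1, and Psmb10 136 ± 23.4 CPM at day 3 and 173 ± 46.1 CPM at day 1, both with overlap. Psmb9 over Psmb6, per kb, was 0.0647 ± 0.0159 at day 3 and 0.114 ± 0.0441 at day 1, without overlap, a description with no test. Day 1 a (0.0890) and day 1 b (0.0879) nearly touched the highest day 3 value (0.0857). Day 1 c, in which Psmb6 was lowest, stood at 0.165. Psmb8 over Psmb5 was 2.03 ± 0.469 at day 3 and 2.07 ± 1.23 at day 1, and Psmb10 over Psmb7 was 4.93 ± 1.196 at day 3 and 4.14 ± 1.19 at day 1, both with overlap. In CPM not divided by length, Psmb8 over Psmb5 was 7.65 ± 1.76 at day 3 and 7.77 ± 4.64 at day 1. Psmb10 over Psmb7 was then 2.46 ± 0.596 at day 3 and 2.06 ± 0.593 at day 1. The order of these pairs thus depended on the exon length used. Psma8, the testis alpha subunit, had 0 to 4.77 CPM at day 3 and at most 0.0666 CPM at day 1, and Psmb11, the thymus subunit, was listed at 0 in all day 3 libraries and at 0 to 0.175 CPM at day 1.

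Other genes of the pathway were counted over whole lists, and edgeR called 0 in each list with either filter. Over all genes tested, 15.8% were at an unadjusted p under 0.05 with edgeR, DESeq2 called 6.77% and voom 5.41%. The lists are short, and none was tested as a set against those shares. Proteins bound to the cap were 8 genes with a median log2 fold change of 0.14, 1 of them at an unadjusted p under 0.05, and 0 called by DESeq2 or voom. The most abundant per kb, by the mean of all 8 libraries, were Sem1, a small lid subunit (273 ± 32.9 CPM at day 3 and 245 ± 6.13 CPM at day 1), and the deubiquitinase gene Uchl5 (94.6 ± 9.04 CPM at day 3 and 85.7 ± 30.6 CPM at day 1). Core assembly chaperones were 5 tested genes, all with a fold change above 0 by edgeR (median 0.19), 0 of them at an unadjusted p under 0.05 and 0 called by DESeq2 or voom. Pomp, the maturation factor, was at 284 ± 32.6 CPM at day 3 and 249 ± 22.4 CPM at day 1, and Psmg4 at 17.1 ± 5.73 CPM at day 3 and 16.8 ± 3.66 CPM at day 1. Of the 7 regulators, 2 were at an unadjusted p under 0.05, DESeq2 called 1 lower and voom 0. Among them Nfe2l2, the oxidative stress factor, had 500.4 ± 81.3 CPM at day 3 and 411 ± 8.42 CPM at day 1, and its partner gene Mafk 38.6 ± 11.6 CPM at day 3 and 47.3 ± 16.6 CPM at day 1.

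Upstream of the proteasome, Ubb stood at 3128 CPM per kb at day 3 and 2321 at day 1, above every member, and the shuttle and p97 genes had the lowest median of the 6 pathway lists. Of 6 ubiquitin and E1 genes, 1 was at an unadjusted p under 0.05, DESeq2 called 1 lower and voom 0. Ubb, a polyubiquitin gene, had 5288, 6739.7, 5339.5, 4324 and 4507 CPM in day 3 a to e and 5036, 4699 and 1926 CPM in day 1 a to c. Of 8 shuttle and p97 genes (median log2 fold change -0.57), 4 were at an unadjusted p under 0.05, and DESeq2 and voom called 2 each, all lower. Over all genes tested, 10.6% were lower at an unadjusted p under 0.05 with edgeR, and DESeq2 called 4.29% lower and voom 4.46%. Vcp, the p97 unfoldase that hands substrates to the proteasome, had 170.2, 142, 149, 145 and 162 CPM at day 3 and 339, 198 and 343 CPM at day 1, without overlap (log2 fold change -0.94 ± 0.20). Its adjusted p was 0.0824 with edgeR, 0.00190 with DESeq2 and 0.0351 with voom.

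Further genes behind these counts were picked after their values were seen. The cap-bound gene at an unadjusted p under 0.05 was Adrm1, a ubiquitin receptor, with 86.6 to 126 CPM at day 3 and 129.9 to 181 CPM at day 1 and no overlap (log2 fold change -0.57 ± 0.19; edgeR adjusted p = 0.160). The 2 regulators were Nfe2l1, the factor that restores proteasome genes when the protease is inhibited (4.87 to 12.7 CPM at day 3 and 6.24 to 38.7 CPM at day 1), and Mafg, the gene DESeq2 called (adjusted p = 0.0498). Mafg had 16.6 to 32.6 CPM at day 3 and 21.9, 34.0 and 138 CPM in day 1 a to c, so that its highest value was again in day 1 c. The shuttle and p97 genes were Vcp, Ubqln1, Ubqln2 and Rad23b, of which DESeq2 and voom called Vcp and Ubqln1. Uba1, the main ubiquitin-activating enzyme, had 30.1 to 55.9 CPM at day 3 and 71.3 to 136 CPM at day 1 (log2 fold change -1.06 ± 0.27; adjusted p = 0.0840 with edgeR and 0.0125 with DESeq2). Ubqln1, a shuttle, had 37.8 to 63.5 CPM at day 3 and 80.5 to 138 CPM at day 1 (-1.02 ± 0.24; 0.0824 and 0.00930 by the same tests). In Uba1 and Ubqln1 day 1 c was the highest library.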

How the data were processed

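The deposited values are raw counts of 8 libraries over annotated genes, not normalised. featureCounts 1.6.0 made them from the GRCm39 annotation of Ensembl (release 106), per the file headers, with no option for strand or read pairs in the recorded command. Per the submitters' processing notes, Trimmomatic and DESeq2 were also used, while for the aligner no name is given in these sources. Between 73.0% and 86.0% of counts from 2 to 20 were even in each library, so counts may hold both reads of a pair and counting error is larger than they show. The letters in the recorded command differ in part from those of the columns, so letters served as names only. No column belonged to another sample.

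Symbols were matched through the reference name table (52081 of 55414 genes, 94.0%; 1 pathway symbol, Paaf1, did not match). Genes were kept with filterByExpr (minimum count 10), given TMM factors, and compared by the quasi-likelihood F test of edgeR 4.0.16, two-sided, all 8 libraries in one fit with the day as the only term, and Benjamini-Hochberg adjustment over all genes tested. Fold changes are day 3 over day 1 on the log2 scale ± SE, and CPM values are normalised CPM ± SD. A count of 3 corresponds to between 0.0500 and 0.0752 CPM. Alternatives were DESeq2 1.42.0, limma 3.58.1 voom with and without quality weights, other scalings, filters and thresholds, halved counts, a robust prior, only the letters shared by both days, once with the letter as a replicate block, and each library left out. Offsets adjusted for GC content, a core without Psmb6 and libraries left out under the stricter filter were added after seeing the data. R 4.3.3, Python 3.11.15 and BLAST 2.17.0 were used, and the fit was tested on simulated data.

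The members, lists and tests were chosen with earlier results of these data known. All 38 members are named. Per library values are given for members called by edgeR with either filter, DESeq2 or voom, for Psmb5, Psmb6, Psmb7 and the activators, and for some others chosen after seeing the values. Of the pathway lists, all immunoproteasome and tissue subunits are named, and of the others called genes and the 2 most abundant per kb by the mean of all 8 libraries, of which some are not reported here. Promoters are from RefSeq on GRCm38.p6, a build other than that of the counts. Near copies were transcripts of other genes with at least 95% identity over at least 100 bases, and 14 of the 38 members had one. For Psmb7, Psmc3, Psmd1 and Psmd13 the only hit was a gene that shares exon bases with the member, not a separate copy. Apart from Nek6, Sirt3, Psme2b and 1 copy with no count, each hit was counted at under 2% of its member's mean.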

Additional observations from a re-analysis of the deposited data

Results flagged for a closer look

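In 3 of the 56 values examined, 1 of the 5 day 3 libraries stood far from the other 4, where chance gives about 1 in 20 such values. Psma3, an alpha subunit gene, had 329 CPM in day 3 a and at most 288 CPM in the other day 3 libraries. Psmb7 had 68.0 CPM in day 3 a and at most 55.99 CPM in the others, and Psmd13, a lid gene, had 104 CPM in day 3 e and at most 83.2 CPM in the others. Without day 3 a the log2 fold change of Psma3 was -0.10 and that of Psmb7 was -0.66, and without day 3 e that of Psmd13 was -0.55, each in the direction of the value over all libraries.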

How the results depend on the processing

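With edgeR and 1 library left out, 0 members were called in each of the 8 cases, and the count over all genes ran from 0 to 31 around the 2 reported, with 31 without day 1 b and 31 without day 3 b, 1 without day 1 c and 0 without any of the others. The labels give no pairing of the samples by the letters a to c. Deviations of libraries with the same letter correlated at 0.071, 0.008 and 0.025 over 15371 genes, and those of unlike letters at -0.093 to 0.066. With 3 libraries per day these values cannot decide whether a letter marks samples handled together. With the letter as a replicate block edgeR called 0 genes (1343 at an unadjusted p under 0.05), and 0 with the same libraries and no block (1660). Over all genes the count was 1041 with DESeq2, 831 with voom, 989 with voom and quality weights, 1347 with no filter, 146 with the stricter filter, 16 with halved counts, 13 with a robust prior, 733 at a threshold of 0.1, 25 without day 1 a and day 3 b together, and 4 and 198 with GC-adjusted offsets under the default and the stricter filter. Members called were 6 with DESeq2, 2 with voom, 3 with voom and quality weights, 3 with no filter, 1 with the stricter filter, 4 at a threshold of 0.1 and 1 with GC-adjusted offsets and the stricter filter. Under the stricter filter and 1 library left out, members called ran from 0 (without day 1 c, day 3 a, c, d or e) to 4 (without day 1 b), and 2 were called without day 1 a and day 3 b together. Over all genes the same fits called 99 of 8025 without day 1 c, 17 of 8177 without day 3 a and 0 without day 3 c, d or e. They called 390 of 8138 genes without day 1 b and 297 of 8250 without day 1 a and day 3 b together. The members' median log2 fold change ran from -0.26 to -0.07 with 1 library left out and was -0.038 without day 1 a and day 3 b together and -0.085 with GC-adjusted offsets. The core to cap difference stayed between 0.14 and 0.23. Of the 38 members, 23 kept the sign of their fold change in all 24 alternatives.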
